A study of Mus musculus with 13 samples.

Results

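CA1 transcriptomes after entorhinal cortex lesion (ECL) and after Schaffer collateral lesion (SCL) were set against each other directly, over all genes counted in the deposited tables. The comparison holds the 4 libraries labelled ECL and the 4 libraries labelled SCL, 8 of the 13 libraries in the series, and no library was chosen by a measured value. Each library came from the CA1 region cut from a single organotypic entorhino-hippocampal culture of wildtype C57BL/6J mice of either sex. The cultures were prepared at postnatal day 4 to 5, had matured for at least 18 days in vitro before the cut, and were harvested 3 days after it, without the scar at the lesion site. The other 5 libraries came from cultures that received no lesion. They did not enter the fit and are quoted here only as a reference level on the same scale. ECL was a scalpel cut of the perforant path between the rhinal and the hippocampal fissure, and SCL was a cut between CA3 and CA1. No transgene or drug was used in the RNA experiment.

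CA1 pyramidal neurons receive excitatory input from CA3 through the Schaffer collaterals, which end on the dendrites close to the cell body, and from the entorhinal cortex through fibres that end on the distal dendritic tufts. Cutting either pathway leaves a different dendritic layer without its input. Degenerating axons are cleared by microglia, which can divide and become activated at such sites, and astrocytes in the denervated layers become reactive. The direct comparison asks which transcripts differ between the loss of one input and the loss of the other, a question that separate comparisons of each lesion with the non-lesioned cultures do not answer.

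The ECL libraries held 20210165 to 46449937 counts and the SCL libraries 16405517 to 56786613, and the ratio of the geometric means was 0.835 (two-sided exact permutation test, p = 0.6, with 0.0286 the smallest p that 4 against 4 allows). Counts of mitochondrially encoded genes made up 4.10 to 5.38% of the total after ECL and 3.42 to 4.26% after SCL (exact permutation test, p = 0.0857, adjusted over 7 library measures 0.467). The column headings give 1 female and 3 male cultures for ECL and 3 female and 1 male for SCL, so sex and lesion are partly confounded. Spearman correlations between libraries were 0.941 to 0.982 within ECL, 0.944 to 0.976 within SCL and 0.932 to 0.984 between the groups. The first 2 principal components carried 36.5% and 22.5% of the variance, and neither separated the lesions fully. On the second, the ECL libraries lay between 0.00589 and 19.9, and SCL replicates 1, 2 and 4 at -8.54, -20.5 and -29.9. SCL replicate 3, at 10.6, lay among the ECL libraries. Titles and tissue labels name CA1, whereas the extraction protocol mentions the dentate gyrus. The summed level of 8 CA1 pyramidal markers was 11486 to 20214 normalized counts after ECL and 13161 to 16251 after SCL. Prox1, which defines dentate granule cells, lay between 305 and 500 in these 8 libraries.

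Values below are normalized counts, that is counts divided by the effective size of the library relative to the geometric mean of the 8 lesion libraries, and they are not corrected for transcript length. A log2 fold change is that of ECL against SCL, so negative values are lower after ECL. Of 55291 gene symbols, 12232 had a mean of at least 150 normalized counts and were tested together.

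No gene passed an adjusted p of 0.05 in edgeR's quasi-likelihood test (0 of 12232, a percent called of 0), and the smallest adjusted p was 0.174, for Lockd. At an unadjusted p under 0.05 there were 897 genes, 7.33% of those tested, with 425 (3.47%) higher and 472 (3.86%) lower after ECL. Chance alone would give about 612 at that level. On the same genes limma-voom called 0 and DESeq2 called 65, of which 11 (0.0899%) were higher and 54 (0.441%) lower after ECL. The 4 ECL values did not overlap the 4 SCL values in 457 genes (3.74%), with ECL above in 211 (1.72%) and below in 246 (2.01%). Leaving out SCL replicate 3 brought 54 genes past the adjusted threshold, 12 higher and 42 lower, leaving out ECL replicate 4 brought 2, Lockd and Ckap2, and leaving out any other library brought 0. Because no adjusted p passed, the values that follow are described as higher or lower and are not called changes. Among the genes named below, DESeq2 called Lockd, Gm38843, Gm13772, Gm13488, Fli1, Apoc4, Pycard, Itgam, Atp5k, Atp5k-ps2, Ndufa1 and Rps29 lower after ECL. It called Adm, Gpx3, Sfmbt2, Marchf1, Rragb, Prelid3a and Rnpc3 higher. Its calls among the mitosis genes and for Aspm are named with their values.

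Differences of 2-fold or more were few and lopsided. There were 76 genes with an absolute log2 fold change of at least 1, 14 of them higher and 62 lower after ECL. The 14 included the 4 Y-linked genes tested (1.47 to 1.95), and the sexes were unequal between the lesions. The 62 included satellite-like repeat genes (median -1.63 of 6 tested), whose values rested on SCL replicate 4. The precision of the design was such that the 95% interval of the log2 fold change lay within -1 to 1 for 11265 genes (92.1%), with a median standard error of 0.184. For these genes a difference of more than 2-fold between the lesions lay outside the interval.

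**Figure D1:**
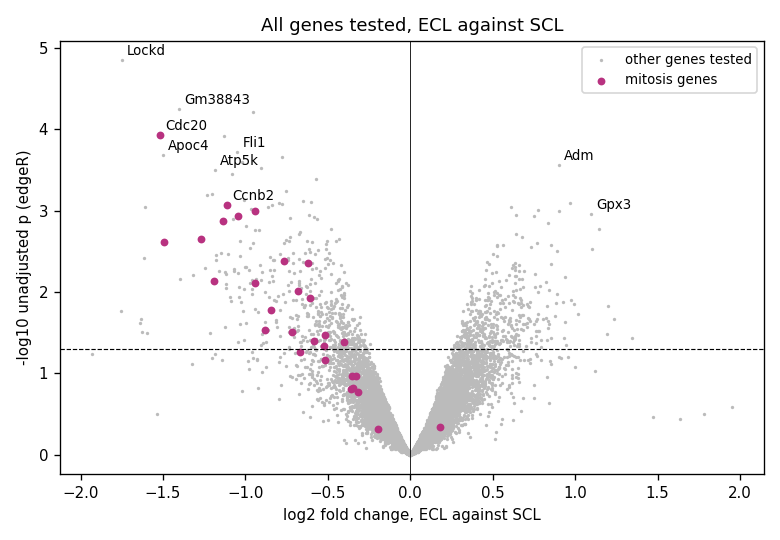
Log2 fold change of ECL against SCL (horizontal axis) and -log10 of the unadjusted p from edgeR (vertical axis) for the 12232 genes tested, with the 29 genes of the mitosis list in purple and a dashed line at the unadjusted threshold of 0.05. The mitosis genes lie on the left, 28 of 29 below 0, and the few genes beyond a log2 fold change of 1 in either direction are mostly lower after ECL.

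The group of genes that stood apart most plainly was the machinery of cell division. A dividing cell raises a set of transcripts in the G2 phase and in mitosis, among them the B-type cyclins that activate the mitotic kinase Cdk1, the kinetochore proteins that tie chromosomes to the spindle, and Cdc20, which turns on the ubiquitin ligase that ends mitosis. Many promoters of such genes carry CCAAT boxes, bound by the factor NF-Y, and a cell cycle homology region with the core TTTGAA, where DREAM and MuvB complexes act. The promoters of 2 members with no overlap between the lesions, Cdc20 and Ccnb2, are shown from RefSeq on GRCm38, from 100 bases before to 10 bases after the annotated start, 5′ to 3′ on the minus strand, on which both genes lie. Capitals mark CCAAT and TTTGAA on the printed strand or its complement.
Cdc20 (chr4:118437334-118437443): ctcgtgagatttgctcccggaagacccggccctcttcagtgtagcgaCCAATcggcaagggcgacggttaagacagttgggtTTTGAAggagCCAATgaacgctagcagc
Ccnb2 (chr9:70421545-70421654): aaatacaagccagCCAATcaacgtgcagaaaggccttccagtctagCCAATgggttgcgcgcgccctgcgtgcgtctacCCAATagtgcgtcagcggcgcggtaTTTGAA

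A RefSeq promoter was found for 26 of the 29 mitosis genes tested. In a window from 250 bases before to 50 bases after the start, searched on both strands, CCAAT occurred in 21 of the 26 (80.8%), at least 2 copies of it in 16 (61.5%), and TTTGAA in 20 (76.9%). Among all 27025 genes with a promoter the shares were 41.1%, 13.3% and 20.2%. Among the 9113 genes tested that had one they were 43.2%, 16.5% and 13.7%. Where a gene had several promoters, the one with the most matches counted. At least 2 copies of CCAAT together with TTTGAA in a promoter were found for 14 of 26 mitosis genes (53.8%). The share was 2.42% of all genes with a promoter and 2.16% of those tested. These matches describe the letters in the window and not the binding of any factor.

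Cdc20 (chr4:118432901-118437352, GRCm38) had 106, 63.0, 76.8 and 148 normalized counts in the 4 ECL libraries and 324, 256, 257 and 297 in the 4 SCL libraries. All SCL values were above all ECL values. The 5 non-lesioned libraries, at 23.6 to 70.3, overlapped with the lowest ECL library and lay below all SCL ones. The log2 fold change was -1.52 (SE 0.26, 95% interval -2.10 to -0.94, edgeR adjusted p = 0.299), and DESeq2 called it. Within female cultures (1 ECL, 3 SCL) the difference was -1.39 and within male cultures (3 ECL, 1 SCL) -1.63. Each of these values rests on a single library on one side.

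Ccnb2 (chr9:70407692-70421547), a B-type cyclin, had 289, 301, 195 and 412 normalized counts after ECL and 903, 593, 567 and 524 after SCL. The groups did not overlap, and the non-lesioned libraries held 18.0 to 109. The log2 fold change was -1.11 (SE 0.25, edgeR adjusted p = 0.382). Spc25, a subunit of the NDC80 kinetochore complex, had 507, 459, 317 and 627 after ECL and 1132, 861, 720 and 958 after SCL, again without overlap (log2 fold change -0.94, SE 0.21). Top2a, the topoisomerase that untangles replicated chromosomes, had 434, 628, 505 and 1032 after ECL and 1326, 1242, 1244 and 1542 after SCL. Its log2 fold change was -1.04 (SE 0.24), and the highest ECL value came from replicate 4, as for Cdc20, Ccnb2 and Spc25.

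Of the 40 members of the mitosis list 29 were tested. The log2 fold change was below 0 for 28 of them (all genes tested, 48.7% below 0), and the median was -0.67 (all genes tested, 0.0070). At an unadjusted p under 0.05, 20 of 29 were lower and 0 were higher, beside a background of 3.86% and 3.47%. The ECL values lay below all SCL values for 10 of 29, beside 2.01%. These were Cdc20, Ccnb2, Spc25 and Top2a together with the kinetochore protein Cenpf, the spindle protein Ckap2, the mitotic kinase Pbk, the cytokinesis regulator Racgap1, the microtubule-binding receptor Hmmr and the chromokinesin Kif22. DESeq2 called 7 of 29, all lower after ECL (Ccnb2, Cdc20, Cenpf, Ckap2, Pbk, Spc25 and Top2a). Anln, an actin-binding protein of the cleavage furrow, was the 1 member above 0 (log2 fold change 0.18, SE 0.23). The 11 members under the mean minimum all had a lower mean after ECL, 4 of them without overlap. The members share a cell cycle programme, so they are not independent of one another.

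Summed over the list, the level was 8474, 9375, 7141 and 13429 normalized counts in the ECL libraries and 17763, 14908, 15907 and 16476 in the SCL libraries. The mean was 9605 ± 2709 (SD, n = 4) after ECL and 16264 ± 1191 (SD, n = 4) after SCL, a ratio of 0.591, and the 5 non-lesioned libraries lay between 4801 and 9206. The sums of the lesion groups did not overlap, while 2 of the ECL sums fell within the range of the non-lesioned cultures. ECL replicate 4 stood nearest to SCL, so leaving it out favours a larger difference. Without it 24 of 29 members were lower at an unadjusted p under 0.05 (background 2.78%) and 23 of 29 did not overlap (background 2.78%). The median log2 fold change was then -0.90. Over the 24 alternative settings the first count ran from 5 to 24. The count without overlap, where computed, ran from 5 to 23. Both were thus at their highest here. The number of members tested differed between settings and fell to 7 with a mean minimum of 500. In a tissue homogenate, fewer dividing cells and less of each transcript per dividing cell cannot be told apart.

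**Figure D2:**
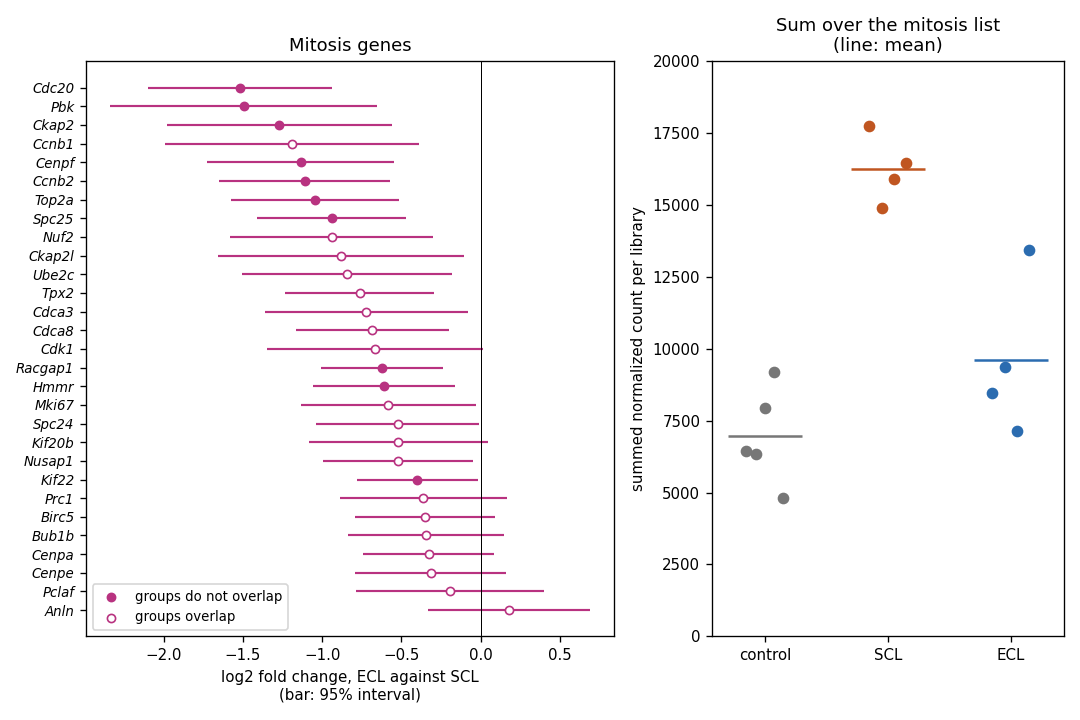
Left, log2 fold change of ECL against SCL with its 95% interval for the 29 mitosis genes tested, filled where the groups do not overlap. Right, the summed normalized count of the mitosis list in each library, with lines at the group means; all 4 SCL sums lie above all 4 ECL sums and above the 5 non-lesioned sums.

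Genes of the preceding phase, DNA replication, differed less. Of 19 tested members of that list 15 were below 0, with a median log2 fold change of -0.065, and 2 of 19 were lower at an unadjusted p under 0.05 (background 3.86%). Those were Rrm1 (-0.51) and Rrm2 (-0.47), the 2 subunits of ribonucleotide reductase, and neither overlapped between the lesions (background 2.01%). The proliferation marker Mki67 (-0.58, SE 0.25) had 224, 313, 268 and 531 normalized counts after ECL and 493, 483, 442 and 579 after SCL, so its groups overlapped through ECL replicate 4. Aspm, a spindle pole protein outside the list that was picked out after its values were seen, had 131, 174, 109 and 242 after ECL and 367, 369, 309 and 496 after SCL, and was called by DESeq2.

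The gene with the smallest p of all was Lockd (chr6:134929092-134956798), a long non-coding RNA next to the gene of the cell cycle inhibitor p27. It had 126, 165, 154 and 253 normalized counts after ECL, and 538, 475, 582 and 744 after SCL. The ECL libraries sat around the non-lesioned ones (160 to 233), and every SCL library was above both. The log2 fold change was -1.75 (SE 0.24, 95% interval -2.27 to -1.22). It was -2.08 within females and -1.96 within males, each with a single library on one side. Lockd passed the adjusted threshold under 7 of 23 alternative settings and lay between -2.04 and -1.61 in all of them.

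Further genes with small p that were lower after ECL included Fli1, an ETS-family transcription factor of blood, endothelial and myeloid cells. It had 313, 411, 307 and 328 normalized counts after ECL and 798, 671, 497 and 849 after SCL (log2 fold change -1.05, SE 0.19). The ECL values were also below the whole range of the non-lesioned cultures (600 to 2546). Apoc4, an apolipoprotein, had 119, 155, 177 and 235 after ECL and 333, 378, 552 and 680 after SCL (-1.50, SE 0.28). Pycard, the adaptor of inflammasomes, had 563, 634, 617 and 675 after ECL and 984, 945, 1019 and 1319 after SCL (-0.78, SE 0.15), and 12.8% of its exon bases are shared with another annotated gene. The non-coding RNA Gm38843 (-1.40) and the processed pseudogenes Gm13772 (-0.95) and Gm13488 (-1.13) completed the 8 smallest p values in that direction. For Gm13772 only 46.3% of 100-base stretches are unique among annotated transcripts, so its reads cannot be assigned with certainty.

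In the other direction the smallest p belonged to Adm (chr7:110627661-110629820), the gene of the vasodilator peptide adrenomedullin, which hypoxia induces in many cells. It had 1164, 776, 863 and 863 normalized counts after ECL and 601, 473, 479 and 412 after SCL. The log2 fold change was 0.90 (SE 0.17, 95% interval 0.52 to 1.28, edgeR adjusted p = 0.327). It was 1.17 within females and 1.02 within males, each with a single library on one side. The non-lesioned cultures, at 576 to 872, overlapped with both lesions.

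Gpx3 (chr11:54902453-54910377), a secreted glutathione peroxidase, was the other strong difference in this direction. It had 11807, 10638, 14553 and 17259 normalized counts after ECL and 5185, 4892, 10099 and 5146 after SCL. All ECL values were above all SCL values, by a small margin for SCL replicate 3, and the non-lesioned range was 2696 to 6302 (log2 fold change 1.10, SE 0.25, edgeR adjusted p = 0.382). Without SCL replicate 3 it passed the adjusted threshold, at 1.42. The other small p values were those of Sfmbt2, a Polycomb group protein (0.97), Marchf1, a membrane-bound ubiquitin ligase (0.61), Rragb, a Rag GTPase of amino acid sensing (0.77), Prelid3a, a lipid transfer protein of mitochondria (0.90), Rnpc3 of the minor spliceosome (0.75), and the pseudogene 2610005L07Rik (0.64). None of them overlapped between the lesions. Rnpc3 shares 17.0% of its exon bases with Amy1, and 76.2% of the 100-base stretches of 2610005L07Rik are unique.

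**Figure D3:**
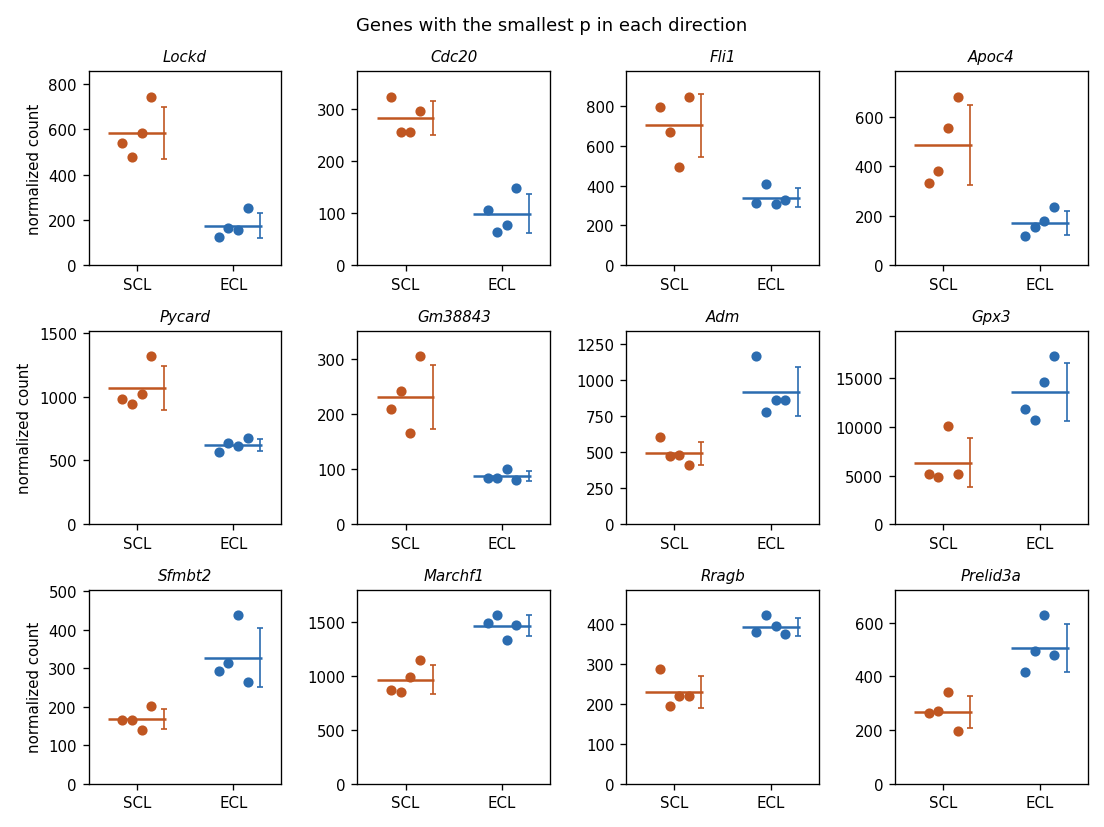
Normalized counts in the 4 SCL and 4 ECL libraries (points) with group means (lines) and SD (bars) for 6 of the 8 genes with the smallest p that were lower after ECL (first 6 panels) and 6 of the 8 that were higher (last 6). No panel shows overlap between the lesions, and Gpx3 comes closest through its highest SCL value of 10099.

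Microglia carry the integrin Itgam (CD11b) and the phosphatase Ptprc (CD45), and resting parenchymal microglia depend on the factor Sall1. Itgam had 940, 1167, 1013 and 1162 normalized counts after ECL and 1495, 1771, 1476 and 1764 after SCL (log2 fold change -0.60, SE 0.13), without overlap. Only 35.7% of its 100-base stretches are unique and 68.7% of its exon bases are shared with Gm49368, so part of its reads may be counted elsewhere or not at all. Ptprc had 668, 745, 593 and 688 after ECL and 1040, 771, 818 and 1067 after SCL (-0.45, SE 0.15). Fcrls, a receptor typical of microglia, had 2342, 2056, 2046 and 2163 after ECL and 2719, 2722, 3532 and 3277 after SCL (-0.51, SE 0.13), and neither overlapped.

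As a list, 12 of the 16 core microglia genes tested were below 0 with a median log2 fold change of -0.31, 3 of 16 were lower at an unadjusted p under 0.05, and 2 of 16 did not overlap (background 2.01%). Of 12 homeostatic genes tested 11 were below 0 (median -0.33) and 2 were lower at that level, Fcrls and Sall1. Of 19 activation genes 17 were below 0 with a median of -0.15, and 3 were lower at that level, the cathepsin Ctsz (-0.31), the secreted phosphoprotein Spp1 (-0.90) and Igf1. The shares at an unadjusted p under 0.05 were thus 18.8%, 16.7% and 15.8%, beside the background of 3.86%. Summed levels overlapped widely, from 14883 to 22493 after ECL and from 17969 to 30827 after SCL for the homeostatic genes, with all lesion libraries above the non-lesioned range of 9235 to 10864. The part of microglial abundance in the mitosis result was not tested.

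Several common microglial readouts overlapped between the lesions. Aif1, which encodes Iba1, had 2710, 6329, 3714 and 4520 normalized counts after ECL and 4334, 3978, 7341 and 5043 after SCL (log2 fold change -0.26, SE 0.26). Tyrobp, the signalling adaptor of Trem2, had 2594, 7023, 2968 and 6133 after ECL and 1915, 2228, 11063 and 2291 after SCL, a spread so wide that its standard error was 0.55, and its sign changed under 5 of 24 alternatives. Trem2 (-0.19, SE 0.13) and P2ry12 (-0.35, SE 0.25) overlapped as well. Tnf stayed under the mean minimum, with 19.5 to 40.5 normalized counts after ECL and 10.7 to 48.1 after SCL.

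Members of other glial lists mostly overlapped between the lesions. Gfap, the intermediate filament of astrocytes, had 98754, 85889, 84448 and 92345 normalized counts after ECL and 102920, 107390, 95255 and 87964 after SCL (log2 fold change -0.12, SE 0.16). Of 15 astrocyte identity genes tested 12 were below 0 (median -0.27), and 2 were lower at an unadjusted p under 0.05 (13.3%, background 3.86%). These were Gja1, the gap junction protein connexin 43 (-0.98), and the transcription factor Sox9 (-0.48). Among 15 reactive astrocyte genes 11 were below 0 (median -0.12), and 2 were lower at that level (13.3%), Vim (-0.58) and Lcn2 (-0.40). The groups overlapped for all 4 genes. Summed over the reactive astrocyte list, levels were 139152 to 164678 after ECL and 162163 to 183955 after SCL. Opalin, a membrane protein of myelinating oligodendrocytes, was the 1 of 16 myelin genes at that level (6.25%, background 3.47%). It was higher after ECL (0.52, SE 0.17), without overlap (background 1.72%).

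Nuclear genes of the respiratory chain split between a few accessory subunits that were lower after ECL and a majority near 0. Atp5k (chr5:108433244-108434448), subunit e of the ATP synthase, had 6233, 4398, 6082 and 5180 normalized counts after ECL and 12596, 11546, 7713 and 17902 after SCL. The groups did not overlap, and the SCL values reached the non-lesioned range of 11542 to 19664 in 3 of 4 libraries while no ECL value did (log2 fold change -1.18, SE 0.23, edgeR adjusted p = 0.327). Its processed pseudogene Atp5k-ps2 on chr2, named after its values were seen, had 128, 85.7, 145 and 114 after ECL and 242, 296, 183 and 374 after SCL (-1.21, SE 0.26). All 100-base stretches of both are unique as annotated, but the 2 genes have closely related sequences, so shared reads are possible.

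Ndufa1, an accessory subunit of complex I, had 6007, 6294, 6025 and 5837 normalized counts after ECL and 8699, 8703, 7674 and 10665 after SCL (log2 fold change -0.56, SE 0.13). Ndufb2, another accessory subunit, had 957, 1116, 1100 and 990 after ECL and 1380, 1410, 1517 and 1515 after SCL (-0.48, SE 0.12). Over complex I, 7 of 44 genes were lower and 0 higher at an unadjusted p under 0.05, 6 of 44 did not overlap, all below, and the median was -0.013. Over complexes II to V, 6 of 45 were lower and 3 higher at that level, 9 did not overlap, all below, and the median was -0.13. The shares without overlap, 13.6% and 20%, stand beside a background of 2.01%. Among all tested genes with less than 500 bases of annotated exon, 6.20% did not overlap on that side. The 6 complex I genes without overlap had a median length of 1661.5 bases, against 1643.5 for all 44. For the 9 genes of complexes II to V the median was 1174 bases (231 to 3567), against 1514 for all 45. With an offset for length and GC content the counts without overlap were 3 of 44 and 5 of 45, and those lower at an unadjusted p under 0.05 were 7 of 44 and 8 of 45. Of 78 cytosolic ribosomal genes 2 were lower without overlap (2.56%, background 2.01%), Rps29 (-0.80, SE 0.18) and Rps28 (-0.74, SE 0.21). At an unadjusted p under 0.05, 4 were lower (5.13%, background 3.86%) and 2 higher (2.56%, background 3.47%). The median of the 78 was 0.036. Mrps18c (-0.58) was the leading one of 77 mitochondrial ribosomal genes, whose median was 0.068. The part of transcript length in the respiratory result was not tested beyond these values.

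**Figure D4:**
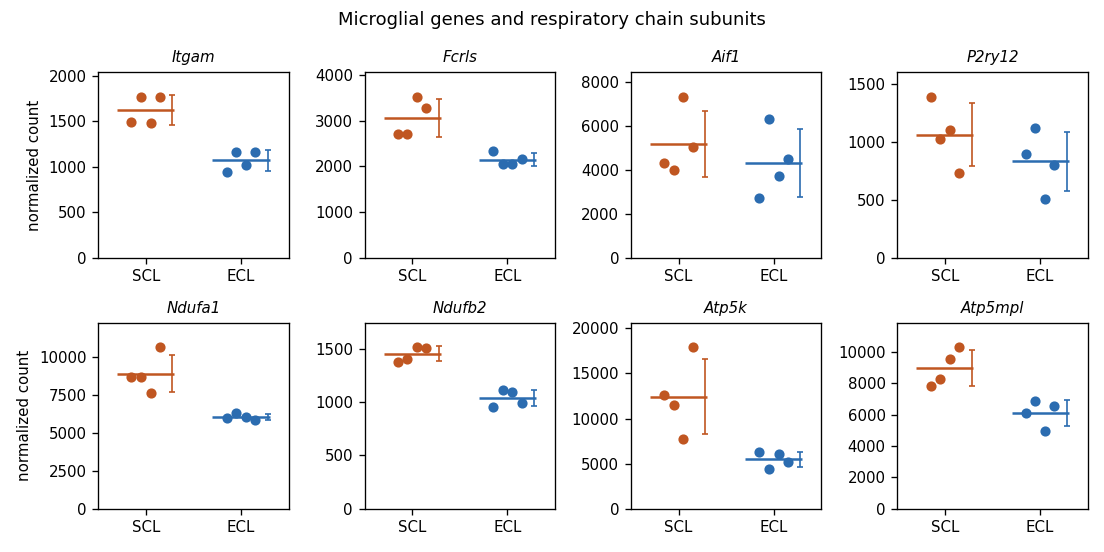
Normalized counts in the 4 SCL and 4 ECL libraries (points), with group means (lines) and SD (bars), for 4 microglial genes and 4 respiratory chain subunits. Itgam, Fcrls, Ndufa1, Ndufb2, Atp5k and Atp5mpl do not overlap between the lesions, while Aif1 and P2ry12 do.

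A few stress-related genes were higher after ECL. Of 14 hypoxia response genes tested 4 were higher at an unadjusted p under 0.05 (28.6%, background 3.47%) and 3 did not overlap (21.4%, background 1.72%), with a median log2 fold change of 0.18. Beside Adm these were Ero1l, an oxidase of the endoplasmic reticulum, with 3387, 3281, 3667 and 3014 normalized counts after ECL and 2880, 1823, 1875 and 1780 after SCL (0.68, SE 0.17), and the glucose transporter gene Slc2a1, with 2024, 2020, 1921 and 1938 after ECL and 1180, 1424, 1707 and 1371 after SCL (0.48, SE 0.13). In the unfolded protein and integrated stress response, 3 of 17 were higher and 0 lower at that level. Ddit3, which encodes the transcription factor CHOP, had 3073, 3038, 3989 and 3432 after ECL and 1943, 1636, 2844 and 1522 after SCL (0.77, SE 0.20), and Ppp1r15a, which encodes a phosphatase subunit acting on eIF2α, was 0.66 (SE 0.19), both without overlap. The chaperone Hspa5 was 0.48 (SE 0.18), with overlap. Of 44 antioxidant genes 4 were higher and 0 lower at that level, led by Gpx3 and Gpx4 (0.64, SE 0.20), and their median was 0.067; 74.8% of the 100-base stretches of Gpx4 are unique.

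Lysosomal and lipid genes were mixed. Of 21 lysosomal and autophagy genes 18 were below 0 (median log2 fold change -0.22, all genes tested 48.7% below 0), and 4 were lower at an unadjusted p under 0.05 (background 3.86%), among them the glucuronidase Gusb (-0.45, SE 0.11) and progranulin, Grn (-0.63, SE 0.18), both without overlap (background 2.01%). Of 21 genes of cholesterol synthesis and lipid transport 3 were higher and 3 lower at that level, beside a background of 3.47% and 3.86%. Of these 21, 15 were above 0, with a median of 0.17. ECL lay above SCL without overlap for 3 (14.3%, background 1.72%). It lay below for 1 (4.76%, background 2.01%), the cholesterol exporter Abca1 (-0.67, SE 0.19).

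Genes of the excitatory synapse lay close to 0 in median and mostly overlapped between the lesions. AMPA receptors carry most fast excitatory transmission. None of 23 tested subunit and auxiliary genes had an unadjusted p under 0.05 (background 7.33% in either direction). Their median log2 fold change was 0.12. Gria1 had 12425, 12288, 14552 and 12351 normalized counts after ECL and 11528, 9915, 11150 and 10748 after SCL, without overlap, but its log2 fold change was only 0.25 (SE 0.13, 95% interval -0.03 to 0.53). Gria2 was 0.15 (SE 0.15, 95% interval -0.18 to 0.48). Among auxiliary genes the smallest p values were those of Cnih2 (0.50, SE 0.24) and Syndig1 (0.35, SE 0.17), both with overlap. The 95% interval lay within -1 to 1 for 19 of the 23, so that 2-fold differences in these genes lay outside it.

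Of 5 NMDA receptor genes tested, 1 was higher at an unadjusted p under 0.05 (20%, background 3.47%), Grin2b (0.47, SE 0.20). It had 4255, 6212, 7828 and 7303 normalized counts after ECL and 4742, 4223, 5844 and 3724 after SCL. Of 26 postsynaptic scaffold and kinase genes 4 were higher and 0 lower at that level (15.4%, background 3.47%), none without overlap, and the median was 0.044. The scaffold Dlg2 (0.47, SE 0.15) and the kinase Camk2a (0.72, SE 0.25) led them. Camk2a had 4165, 6195, 9372 and 6908 after ECL and 3192, 3618, 5789 and 3597 after SCL. Its log2 fold change was -0.01 within females and 1.06 within males, each with a single library on one side. Medians were 0.022 for 14 GABA-A receptor and gephyrin genes, 0.057 for 37 presynaptic genes and 0.016 for 28 synaptic adhesion genes. The edgeR test gave the adhesion list 0 genes at an unadjusted p under 0.05 (background 7.33% in either direction). It gave the presynaptic list 2, with Syn2 (0.35), a vesicle phosphoprotein, higher (2.7%, background 3.47%) and Rab3b (-0.34), a vesicle GTPase, lower (2.7%, background 3.86%).

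**Figure D5:**
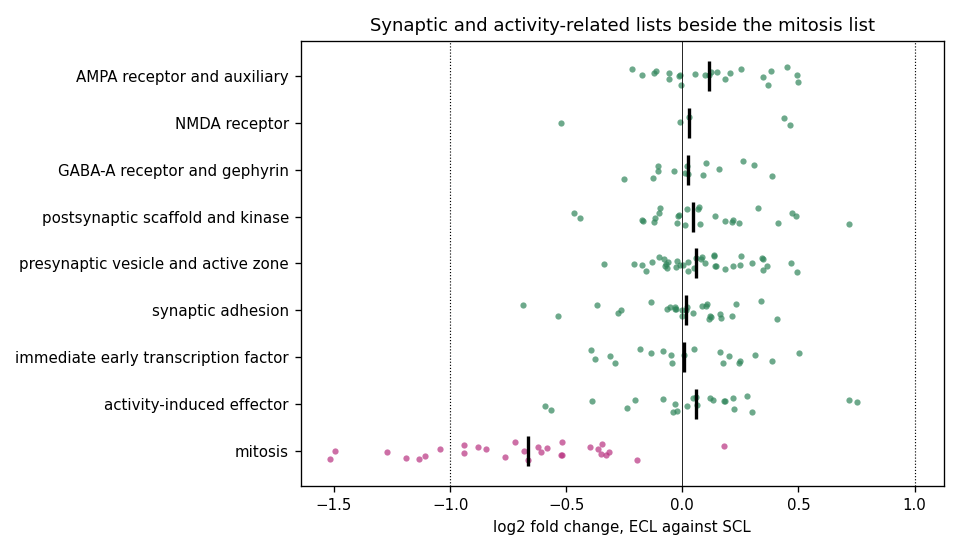
Log2 fold change of ECL against SCL for each tested member of 8 synaptic and activity-related lists (green) and of the mitosis list (purple), with black bars at the medians and dotted lines at -1 and 1. Medians of the 8 lists lie close to 0, and that of the mitosis list at -0.67.

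Transcripts induced by neuronal activity were also alike in median. Of 19 immediate early transcription factors 0 had an unadjusted p under 0.05 in edgeR (background 7.33% in either direction), and the median was 0.0060. Egr1 had 2663, 3180, 3823 and 3618 normalized counts after ECL and 2493, 3573, 2385 and 3301 after SCL (0.18, SE 0.17), all far below the non-lesioned range of 10494 to 16572. Ier2 (0.16, SE 0.21) and Junb (0.50, SE 0.24) overlapped, and Btg2 (0.25, SE 0.13) did not. Egr2, under the mean minimum, had 93.3 to 199 normalized counts after ECL and 51.4 to 127 after SCL.

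Arc, which drives the removal of AMPA receptors from synapses, was the activity-induced effector with the smallest p. It had 532, 650, 1064 and 1313 normalized counts after ECL and 504, 683, 532 and 433 after SCL (log2 fold change 0.72, SE 0.27, edgeR adjusted p = 0.622). The higher ECL values were those of replicates 3 and 4, and the difference was -0.11 within females and 1.22 within males, each with a single library on one side. Rheb, an activator of mTORC1, was -0.59 (SE 0.24). Bdnf (-0.39, SE 0.21), Homer1 (0.02, SE 0.14) and Synpo, which encodes the spine apparatus protein synaptopodin (-0.17, SE 0.21), overlapped, and the sign of Homer1 changed under 3 of 24 alternatives. Of 22 genes in a list of homeostatic synaptic scaling, 1 (Arc) was higher at an unadjusted p under 0.05 (4.55%, background 3.47%). At that level 0 were lower (background 3.86%), and the median was 0.067. The 95% interval lay within -1 to 1 for 21 of the 22.

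Some markers of CA1 pyramidal cells were also highest in ECL replicates 3 and 4. Pou3f1, a transcription factor, had 567, 1044, 2168 and 1728 normalized counts after ECL and 794, 840, 721 and 708 after SCL (0.84, SE 0.33), and Wfs1, a protein of the endoplasmic reticulum, had 293, 353, 723 and 463 after ECL and 338, 233, 298 and 258 after SCL (0.70, SE 0.27). ECL replicate 3 was the highest library for both and also held the highest summed CA1 marker level. Of 8 such markers 2 were higher at an unadjusted p under 0.05 (background 3.47%), with a median of 0.12. The part of the CA1 share of the excised tissue in the values of Arc and Camk2a was not tested. The median of 13 pan-neuronal genes was -0.021.

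Of the other genes named by rule, Cox6b2 (-0.56, SE 0.42), Atp6v0c (0.75, SE 0.48) and Mrpl20 (0.09, SE 0.14) overlapped between the lesions. Atp6v0c, a subunit of the vacuolar proton pump, ranged from 151 to 1184 within SCL alone. Genes over satellite-like repeats had large negative values that rested on 1 library. Gm10801 had 421, 316, 518 and 300 normalized counts after ECL and 457, 611, 481 and 3743 after SCL, and the median of 6 tested members was -1.63 with SCL replicate 4 and -0.32 without it. The Y-linked Kdm5d had 894, 683 and 818 normalized counts in the 3 male ECL libraries and 656 in the male SCL library, and at most 3.06 in the 4 female ones, as the headings give the sexes.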

How the data were processed

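RNA of 8 lesioned CA1 samples was compared. The authors amplified cDNA with a low-input kit (12 PCR cycles), sequenced 150-base read pairs, trimmed with cutadapt 3.5, mapped with STAR 2.7.8a to mm10 (GRCm38) and counted per gene with featureCounts 2.0.1 on GENCODE M25 without regard to strand, so antisense overlaps cannot be told apart. The deposited values are these raw counts per gene symbol, not normalized. Low counts (1 to 20) were even in 63.0 to 74.3% of cases, so both ends of a pair were mostly counted, and halved counts served as an alternative. Without molecular identifiers, intervals cover the spread between these cultures only, and reads are not independent molecules.

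Groups came from the lesion label, and sex from the column headings. Genes with a mean of at least 150 normalized counts were tested with edgeR 4.0.16 in R 4.3.3 (TMM factors over the genes tested, glmQLFit, glmQLFTest, two-sided, Benjamini-Hochberg adjustment, threshold 0.05). The biological coefficient of variation was 0.22. Standard errors were derived from the F statistic as |log2 fold change| over its square root, and intervals are 95% with 11.18 degrees of freedom. Within-sex values are differences of log2 means with a pseudocount of 0.5. The code was tested on simulated data. Coordinates and lengths are those of GENCODE M21 (GRCm38), which holds 12044 (98.5%) of the genes tested. Promoters are RefSeq's on the same build.

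The comparison, the gene lists and the genes named were chosen with earlier results of these data known, and mitosis members Ube2c, Ccnb1, Ccnb2, Ckap2, Kif22 and Spc25 had been seen in the paper, so the list is not independent evidence of its direction. Genes were named by this rule: every called gene, the 8 with the smallest p in a direction with under 10 calls, up to 2 members of each list described in order of unadjusted p, and a panel of 21 genes. A gene that this rule named is not reported here. Other members and genes named beside them (the further mitosis genes without overlap, Anln, Mki67, Aspm, Atp5k-ps2, Slc2a1, Igf1 and Hspa5 among them) were chosen after their values were seen. DESeq2 1.42.0, limma-voom 3.58.1, other scalings and filters, a sex term, blocks, a length and GC offset from mgcv 1.9.3, a fit of all 13 libraries and the removal of each library were alternatives, 24 in all, of which 3 were added after seeing the data. No library was left out. The authors' comparisons of each lesion with the non-lesioned cultures were not used here.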

Additional observations from a re-analysis of the deposited data

Results flagged for a closer look

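Of 250 groups of 4 values checked, 15 held a single library that stood apart from the other 3 by more than Dixon's 95% critical value for 4 samples, the gap to the nearest library as a share of the whole range. Chance flags about 1 in 20 groups, here about 12. SCL replicate 3 was the highest SCL library for Tyrobp (11063 normalized counts), Gpx3 (10099) and Camk2a (5789), and SCL replicate 1 for Bdnf (10255), Ero1l (2880) and the sums over activity-induced effectors (125336) and synaptic adhesion genes (127853). SCL replicate 4 was highest for the satellite-like genes Gm10801 (3743) and Gm21738 (3581), for the sum over that list (75142) and, as the 1 male SCL culture, for Kdm5d (656). Among the ECL libraries, replicate 3 was highest for Gria1 (14552), replicate 4 for Rps28 (334) and replicate 1 for total counts (46449937), and replicate 1 was lowest for Sox9 (8698).

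For 3 genes the single female ECL culture lay on one side of all 3 female SCL cultures while all 3 male ECL cultures lay on the opposite side of the single male SCL culture. The log2 fold change within females and within males was -0.47 and 1.22 for Pou3f1, -0.36 and 1.20 for Junb, and -0.27 and 0.34 for Homer1. The difference between the sexes was not tested.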

How the results depend on the processing

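The number of genes past an adjusted p of 0.05, 0 in the edgeR test as reported, was 65 with DESeq2, 217 with every gene that had a count, 1 with all 13 libraries in 1 fit, 1 with a sex term, and 2 with a block for the heading number of the columns plus sex. Leaving out single libraries gave 0 to 54. The 54 came without SCL replicate 3 and 2 without ECL replicate 4. The number at an unadjusted p under 0.05 (897) was 3067 with every gene that had a count, 1449 with edgeR's own filter, 575 with a mean minimum of 500, 1535 with the heading number and sex, and 515 to 1376 without 1 library, the extremes being SCL replicates 2 and 3, and 578 without ECL replicate 4. The count without overlap (457) was 1200, 810 and 303 under the same 3 filters and 546 to 1397 without 1 library, where fewer samples make overlap less likely. For filters the number of genes tested differed, and for the other settings the cause was not tested. Mitosis genes, with a median log2 fold change of -0.67, had a median of -1.05 with a mean minimum of 500, which left 7 of them, and of -0.57 at the highest over all 24 alternatives. No value changed sign past a threshold.

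The replicate numbers in the titles were not taken to pair the cultures. Deviations of same-numbered samples correlated at 0.521, -0.139, -0.126 and 0.11, and not every sample correlated best with its own number. The first of these was the highest of all pairs, and these values cannot exclude a shared litter or date. With this replicate block 0 genes passed and 1174 had an unadjusted p under 0.05. Limits are the 4 cultures a lesion, the unequal sexes, unknown litters and dates, and counts of read ends after amplification from little RNA. With a median standard error of 0.184, small differences were not detectable, and p-values measure the spread between these cultures.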
